A study of Mus musculus with 12 samples.

Results

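Fbll1, Gm2115, Slc25a16 and Kctd4 are 4 genes whose signal was lower in the hippocampus of mice lacking CREB and CREM than in control mice at rest, that is, after a saline injection. Every probe set that the platform annotation assigns to 1 of these symbols was taken, which gave 9 of the 11868 probe sets on the array that are not controls, or 4 of 5928 gene symbols. Fbll1 and Slc25a16 have 1 probe set each, Gm2115 has 2 and Kctd4 has 5. The genes were chosen on the saline arrays, so their saline values are given as a description and carry no test. The kainate arrays are the ones that the choice did not use. The fitted errors and p-values of kainate comparisons still draw on the spread of the saline arrays, so they are not fully independent of the choice.

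CREB and CREM are related leucine zipper factors that bind the cAMP response element. Activating forms of both raise transcription when neuronal activity or cAMP leads to their phosphorylation. CREB and CREM are expressed in hippocampal neurons, where CREB-dependent transcription is known for its roles in plasticity and in neuronal survival. Fbll1 encodes a paralog of fibrillarin, the methyltransferase of the small nucleolar ribonucleoproteins that modify ribosomal RNA. Slc25a16 belongs to the mitochondrial carrier family, whose proteins move solutes across the inner mitochondrial membrane, and it has been linked to the transport of coenzyme A. Kctd4 encodes a protein with the BTB fold of the KCTD family. Gm2115 is listed in the mouse gene table as protein-coding, with Ctxnd1 among its synonyms.

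The arrays form 4 groups of 3, which are mutant mice given kainate, control mice given kainate, mutant mice given saline and control mice given saline. Kainate, an agonist of glutamate receptors that triggers seizures, was injected into the peritoneum at 20 mg/kg, and the mice were killed 1 hour later. Per the labels the animals were littermates of both sexes, 5 to 6 weeks old, housed singly and handled for 5 days, and each array holds hippocampal RNA pooled from 3 of them. The series title gives the mutation as loss of CREB and CREM. The sources used here do not give the alleles, a Cre line if one was used, or the exact genotype of the controls.

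The 250 bases before and the 50 after each gene's start are printed because the deleted factors bind the cAMP response element, whose palindrome is TGACGTCA and whose half-site is TGACG. Both were searched on both strands, and every palindrome also holds the half-site. The RefSeq table of promoters (GRCm38.p6) holds 3 of the 4 genes. Capitals mark a half-site on either strand, and each sequence runs 5′ to 3′ on its gene's strand.
Fbll1, minus strand, chr11:35798835-35799134: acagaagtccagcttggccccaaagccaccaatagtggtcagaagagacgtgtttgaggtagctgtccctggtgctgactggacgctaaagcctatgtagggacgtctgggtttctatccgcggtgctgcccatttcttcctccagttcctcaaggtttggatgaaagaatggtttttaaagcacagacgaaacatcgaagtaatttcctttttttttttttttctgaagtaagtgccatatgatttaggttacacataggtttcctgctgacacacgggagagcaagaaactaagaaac
Gm2115, plus strand, chr7:84528724-84529023: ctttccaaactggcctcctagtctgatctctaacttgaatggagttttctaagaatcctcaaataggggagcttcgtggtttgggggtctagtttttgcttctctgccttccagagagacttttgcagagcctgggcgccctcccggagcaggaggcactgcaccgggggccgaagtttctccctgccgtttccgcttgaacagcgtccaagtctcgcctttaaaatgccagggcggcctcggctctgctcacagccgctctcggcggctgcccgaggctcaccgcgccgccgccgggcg
Slc25a16, plus strand, chr10:62920383-62920682: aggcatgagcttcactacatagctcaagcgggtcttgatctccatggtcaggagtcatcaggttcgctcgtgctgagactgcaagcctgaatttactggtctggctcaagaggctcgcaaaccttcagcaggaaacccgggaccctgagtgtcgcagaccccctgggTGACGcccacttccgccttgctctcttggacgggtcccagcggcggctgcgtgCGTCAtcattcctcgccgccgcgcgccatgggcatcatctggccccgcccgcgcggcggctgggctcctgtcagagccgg
The Slc25a16 window held 2 half-sites, which begin at -83 and -30 from the start, and the windows of Fbll1 and Gm2115 held 0. None of the 3 held the palindrome. Of the 32851 promoter windows of the same length in the table, 20.8% held a half-site and 1.79% the palindrome. These matches describe the letters in the window and do not show a bound site.

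Array medians ran from 3.26 to 3.41 on the log2 scale, and correlations between arrays from 0.935 to 0.998. A probe set was tested where its value reached log2 4, the dim level, on at least 3 of the 12 arrays, which 3541 (29.8%) did. Creb1 and Crem encode the factors that the mutants lack. After kainate Creb1 averaged 4.90 in mutants and 4.85 in controls, and Crem 4.57 in mutants and 4.47 in controls. After saline Creb1 averaged 5.01 in mutants and 4.88 in controls (0.12 ± 0.08), and Crem 4.71 in mutants and 4.46 in controls (0.24 ± 0.08). Whether these probe sets lie in the removed part of either gene is unknown here, so the levels do not check the genotype labels. The array of mutant kainate replicate 3 stands apart, with an SD over probe sets of 1.54 against 1.74 to 1.81 on the others. The array labelled control kainate replicate 3 goes against its label on Gfap, Fbll1, Gm2115 and Slc25a16, but not on Kctd4 166314_i_at. Mutant kainate replicate 3 goes against its label on Gfap and Fbll1, but not on Gm2115 and Slc25a16. Gfap encodes the intermediate filament of astrocytes. For it mutant kainate replicates 1 and 2 had 12.82 and 13.03, and control kainate replicates 1 and 2 had 11.51 and 11.53. Control kainate replicate 3 had 12.95 and mutant kainate replicate 3 had 11.55. The genotype differences of the 4 genes after kainate are given with these 2 arrays as labelled and also without them, which leaves 2 mutant against 2 control kainate arrays. The 4 genes described here are among the values that brought these arrays into doubt, so the fits without them are not independent evidence of a genotype difference. Replicate 1 arrays also differ from those of replicates 2 and 3 across the series, and values within each are given as a batch seen in the data.

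Of the 9 probe sets, 7 lay at or above the dim level on all 12 arrays, 1 each of Fbll1, Gm2115 and Slc25a16 and 4 of Kctd4. The second Gm2115 probe set, 131113_at, read 3.57 to 3.74 over the arrays, and the Kctd4 probe set 130392_at read 3.38 to 3.58. Neither reached the dim level on any array, so they bear on no comparison.

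Fbll1 was lower in mutants at rest, and after kainate its genotype difference rested on which replicate 3 arrays were counted. Its probe set (168173_at) read 6.52, 6.49 and 7.46 on mutant kainate replicates 1, 2 and 3, against 7.84, 7.78 and 6.51 on the control kainate arrays. Replicates 1 and 2 were lower in mutants by more than 1 log2 unit, while the replicate 3 arrays lay the other way round, so the groups overlapped. After saline it read 6.76, 6.52 and 6.35 in mutants, against 7.89, 8.07 and 8.11 in controls. All 3 mutant saline arrays lay below every control saline array, at a mean of 0.358 times the control level (log2 difference -1.48 ± 0.37, SE). Of the 3541 probe sets only 1 had a more negative saline difference, but this is the contrast on which the genes were chosen.

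After kainate the log2 difference of Fbll1 was -0.56 ± 0.37 with all arrays by limma, with an adjusted p of 0.55. Replicate 1 alone gave -1.32, and replicates 2 and 3 gave -0.17. It was -0.99 without control kainate replicate 3 and -0.87 without mutant kainate replicate 3. Without both arrays it was -1.31 ± 0.13 (limma, adjusted p = 0.0587), and with the batch as a block as well -1.31 ± 0.14 (limma, adjusted p = 0.0249), or 0.405 times the control level.

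Gm2115 was lower in mutants on every saline array and in each pair of kainate arrays of the same number, by little in replicate 3. Its measured probe set (133540_at) read 7.21, 6.93 and 6.77 in mutants after kainate, against 8.83, 8.29 and 6.91 in controls. Control replicates 1 and 2 lay above all 3 mutant arrays, and control replicate 3 lay among them. After saline it read 7.31, 6.83 and 7.16 in mutants, against 8.54, 8.36 and 8.34 in controls, with no overlap and a mean of 0.401 times the control level (log2 difference -1.32 ± 0.40).

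The difference of Gm2115 after kainate was -1.04 ± 0.40, or 0.487 times the control level (limma, adjusted p = 0.55, unadjusted p = 0.0276). Replicate 1 alone gave -1.61 and replicates 2 and 3 gave -0.75. Control kainate replicate 3 lay 1.65 log2 units lower than the mean of the other control kainate arrays, and without it the difference was -1.59 ± 0.20 (limma, adjusted p = 0.104). Without both doubted arrays it was -1.49 ± 0.22 (limma, adjusted p = 0.202), and with the batch block -1.49 ± 0.13 (limma, adjusted p = 0.013).

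Slc25a16, the carrier gene, was lower in mutants on every saline array and on the kainate arrays of replicates 1 and 2, each set against the control array of its number. Its probe set (133141_at) read 6.15, 5.48 and 5.65 in mutants after kainate, against 6.93, 6.24 and 5.39 in controls. After saline it read 6.19, 5.56 and 5.55 in mutants, against 7.05, 6.49 and 6.46 in controls. Replicate 1 was the highest array of each group. The saline mean was 0.537 times the control level (log2 difference -0.90 ± 0.37), with no overlap. Replicate 1 alone gave -0.85 and replicates 2 and 3 gave -0.92.

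After kainate the difference of Slc25a16 was -0.42 ± 0.37 with all arrays by limma, with an adjusted p of 0.557. Replicate 1 alone gave -0.78, and replicates 2 and 3 gave -0.25. It was -0.05 without control kainate replicate 1 and -0.82 without control kainate replicate 3. Without both doubted arrays it was -0.77 ± 0.36 (limma, adjusted p = 1), and the batch block reduced the error to 0.06 at the same difference (limma, adjusted p = 0.013).

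**Figure D1:**
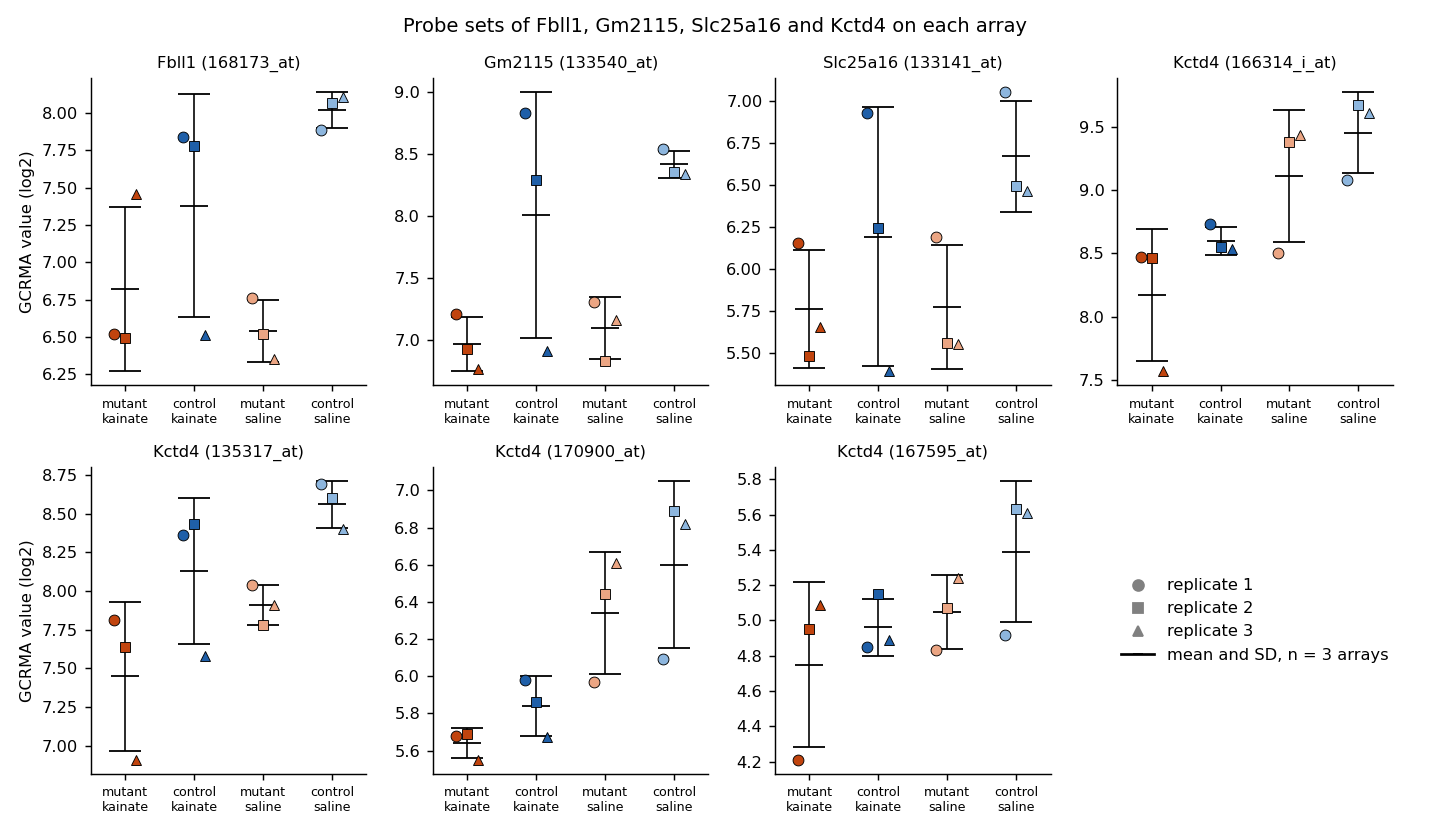
Deposited GCRMA values (log2) of the 7 probe sets at or above the dim level, with a symbol for each array, its shape giving the replicate number, and bars for the mean and SD of 3 arrays. On the Fbll1 and Gm2115 panels the replicate 3 array labelled control kainate lies at 6.51 and 6.91, in the range of the mutant arrays. On the Slc25a16 panel it lies at 5.39, below every mutant array. The other control arrays of these 3 panels lie higher than the mutant arrays.

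Kctd4 was read by 4 measured probe sets that fall into different patterns. Probe set 135317_at read 7.81, 7.64 and 6.91 in mutants after kainate, against 8.36, 8.43 and 7.58 in controls. Both replicate 3 arrays were the lowest of their group, each 0.81 lower than the mean of the other arrays. After saline it read 8.04, 7.78 and 7.91 in mutants, against 8.69, 8.60 and 8.40 in controls, with no overlap (log2 difference -0.65 ± 0.27, 0.636 times the control level).

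For 135317_at the doubted arrays, left out together, did not move the difference after kainate. It was -0.68 ± 0.27 (limma, adjusted p = 0.55, unadjusted p = 0.0317) with all arrays and -0.68 ± 0.12 (limma, adjusted p = 0.42) without both doubted arrays. Replicate 1 alone gave -0.56 and replicates 2 and 3 gave -0.73. With the batch block and without both arrays the difference was -0.68 ± 0.10 (limma, adjusted p = 0.129), which did not pass. Leaving out control kainate replicate 3 alone gave -0.95, and leaving out mutant kainate replicate 3 alone gave -0.40.

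The other Kctd4 probe sets showed smaller genotype differences. Probe set 166314_i_at read 8.47, 8.46 and 7.57 in mutants after kainate, against 8.73, 8.55 and 8.53 in controls. It was the only measured probe set of the 4 genes whose kainate groups did not overlap, as 3.78% of all tested probe sets did in the lower direction, and its exact permutation p of 0.1 is the smallest that 3 arrays against 3 can give. Its difference of -0.44 ± 0.31 (limma, adjusted p = 0.55) became -0.14 without mutant kainate replicate 3 and -0.17 ± 0.33 without both doubted arrays. After saline its groups overlapped, at 8.50, 9.38 and 9.43 in mutants against 9.08, 9.67 and 9.61 in controls (log2 difference -0.34 ± 0.31).

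Probe set 170900_at read 5.68, 5.69 and 5.55 in mutants after kainate, against 5.98, 5.86 and 5.67 in controls (log2 difference -0.19 ± 0.22, limma, adjusted p = 0.609, and -0.23 ± 0.29 without the 2 doubted arrays). After saline it read 5.97, 6.44 and 6.61 in mutants, against 6.09, 6.89 and 6.82 in controls (log2 difference -0.26 ± 0.22). Probe set 167595_at read 4.21, 4.95 and 5.09 in mutants after kainate, against 4.85, 5.15 and 4.89 in controls (log2 difference -0.21 ± 0.26, limma, adjusted p = 0.62, and -0.42 ± 0.32 without the 2 doubted arrays). After saline it read 4.83, 5.07 and 5.24 in mutants, against 4.92, 5.63 and 5.61 in controls (log2 difference -0.34 ± 0.26). On both probe sets the genotypes overlapped under each treatment, and 167595_at turned to 0.06 after kainate without mutant kainate replicate 1.

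No probe set on the array passed the threshold of adjusted p under 0.05 for mutant against control after kainate, in either direction (0 of 3541 by limma, 0.00%), and 0 of the 7 measured probe sets did. At an unadjusted p under 0.05 there were 167 of 3541 (4.72%), of which 2 were Gm2115 and Kctd4 135317_at. The exact permutation p of the other 6 probe sets ran from 0.3 to 0.7. All 7 differences were below 0, with a median of -0.44, while 53.5% of all tested probe sets were below 0 with a median of -0.031. Of the 7, 4 are probe sets of Kctd4 read on the same arrays, so the 7 signs are not independent of each other. Without the 2 doubted arrays all 7 were again below 0, with a median of -0.68, while 43.2% of all tested probe sets were below 0 with a median of 0.011. After saline, the contrast that chose the genes, 4 of the 7 had no overlap in the lower direction, as did 5.11% of all probe sets.

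Without the 2 doubted arrays 6 of the 7 measured probe sets had no overlap in the lower direction after kainate, against 10.4% of all tested probe sets, and 0 of 3541 passed by limma, with 102 (2.88%) at an unadjusted p under 0.05. With the batch block as well, 229 of 3541 (6.47%) had an unadjusted p under 0.05, and 4 passed lower (0.113%) and 0 higher (0.00%) after adjustment, and 3 of the 4 were Slc25a16, Gm2115 and Fbll1. The fourth was a probe set of Anks1b, a gene of a postsynaptic scaffold protein, named here after its values were seen. The genes described here helped to bring the 2 arrays into doubt, so these counts are not independent evidence of a genotype difference. The errors of these fits also draw on the saline arrays on which the genes were chosen.

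**Figure D2:**
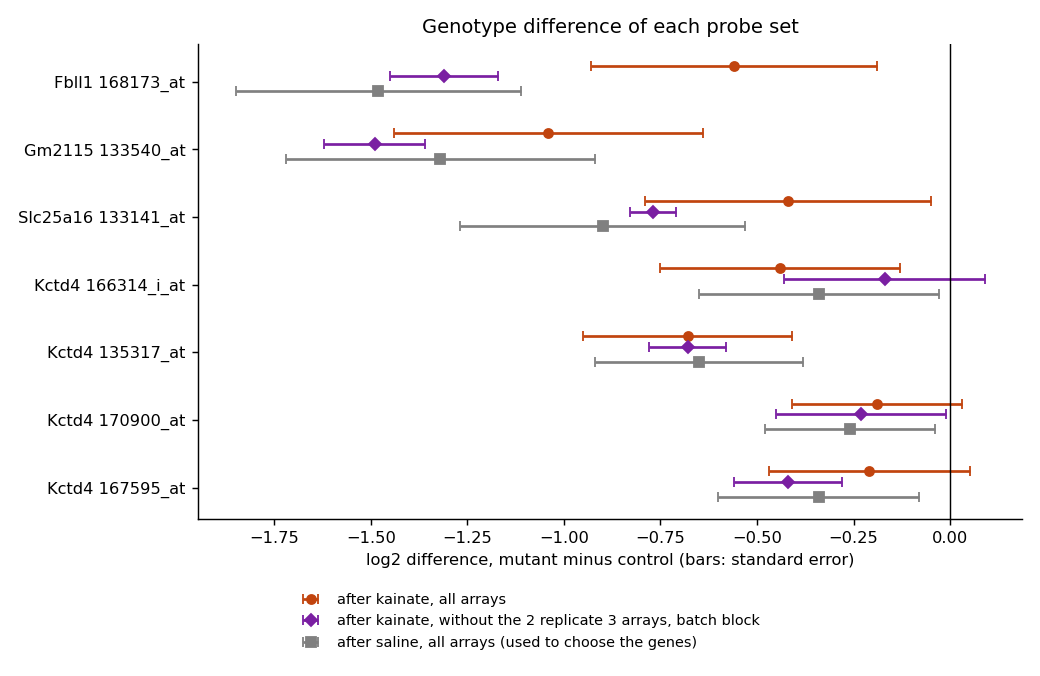
Log2 difference, mutant minus control, of each measured probe set, with standard errors from the limma fit, after kainate with all arrays (circles), after kainate without the 2 replicate 3 kainate arrays and with the batch block (diamonds), and after saline (squares). Every point lies below 0, and leaving out the 2 arrays moves Fbll1 from -0.56 to -1.31 and leaves Kctd4 135317_at at -0.68.

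**Figure D3:**
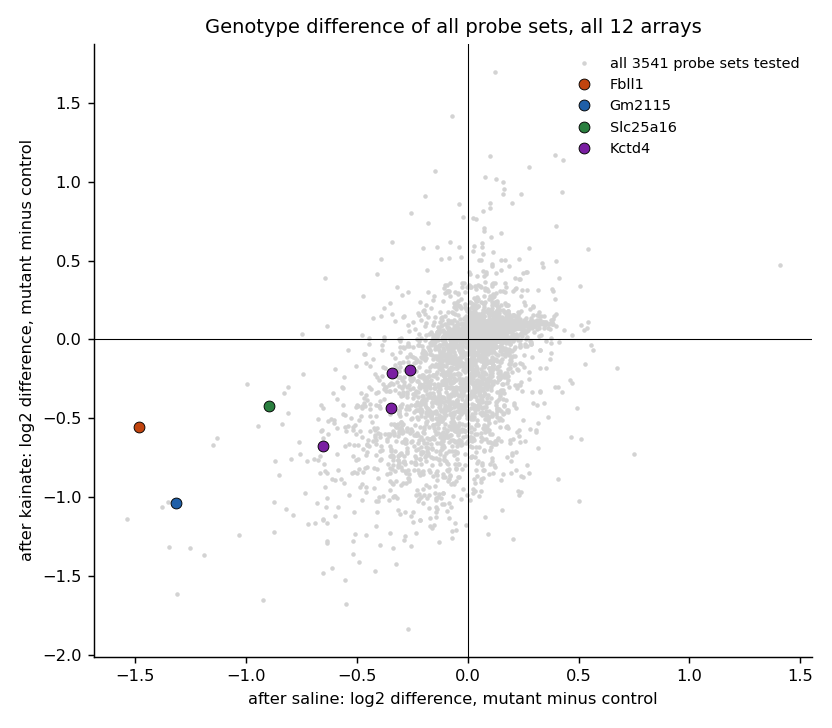
Mutant minus control log2 difference after saline (horizontal axis) and after kainate (vertical axis) for all 3541 tested probe sets (grey) and the measured probe sets of the 4 genes (coloured). All 7 lie below 0 on both axes, Fbll1 at -1.48 and -0.56 and Gm2115 at -1.32 and -1.04, and other probe sets lie as low or lower after kainate.

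Between kainate and saline arrays of 1 genotype, Fbll1, Gm2115 and Slc25a16 differed by at most 0.21 once the doubted arrays were left out. These differences use the saline arrays on which the genes were chosen, so they are given without a test. In mutants the kainate minus saline difference was 0.28 ± 0.37 for Fbll1, -0.13 ± 0.40 for Gm2115 and -0.01 ± 0.37 for Slc25a16. In controls it was -0.64 ± 0.37, -0.41 ± 0.40 and -0.48 ± 0.37 for the same genes. Without the 2 doubted arrays all 6 values lay between -0.21 and 0.14. The kainate effect in mutants minus that in controls was 0.93 ± 0.52 for Fbll1, 0.28 ± 0.56 for Gm2115 and 0.47 ± 0.53 for Slc25a16 with all arrays. Without the 2 doubted arrays it was 0.18 ± 0.17, -0.17 ± 0.28 and 0.13 ± 0.47 for the same genes.

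By group mean the order for Fbll1 was control saline, control kainate, mutant kainate and mutant saline. For Gm2115, Slc25a16 and Kctd4 135317_at it was control saline, control kainate, mutant saline and mutant kainate. In these orders the gaps between neighbours exceeded the larger SD of the pair nowhere, and of the neighbouring groups only control saline and control kainate for Fbll1 did not overlap. For Kctd4 166314_i_at, 170900_at and 167595_at both saline groups stood above both kainate groups by their means.

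The Kctd4 probe sets 166314_i_at and 170900_at were lower after kainate in both genotypes, with no overlap between treatments. In mutants they were 2 of the 7 measured probe sets with no overlap in the lower direction, against 8.44% of all tested probe sets. In controls they and Fbll1 were 3 of the 7, against 4.63%. These comparisons share the saline arrays on which the genes were chosen, so the counts are a description and carry no test. For 166314_i_at the kainate minus saline difference was -0.94 ± 0.31 in mutants and -0.85 ± 0.31 in controls, and for 170900_at it was -0.70 ± 0.22 and -0.76 ± 0.22. The differences lay mainly in replicates 2 and 3, which gave -1.39 in mutants and -1.10 in controls for 166314_i_at, against -0.04 and -0.35 in replicate 1. For 170900_at these values were -0.90 and -1.09 in replicates 2 and 3, against -0.29 and -0.11 in replicate 1. Probe set 135317_at of the same gene gave -0.46 ± 0.27 in mutants and -0.44 ± 0.27 in controls, and -0.19 and -0.16 without the 2 doubted arrays.

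The actin 3′ minus 5′ value, a measure of RNA integrity and labelling, also differed between kainate and saline arrays of the same number. The kainate array was higher than the saline array of the same number by 0.46 and 0.70 in mutant replicates 2 and 3 and by 0.45 and 0.46 in control replicates 2 and 3. In replicate 1 it was -0.39 in mutants and -0.14 in controls. The same measure for Gapdh was 0.15 and 0.12 on control kainate replicates 2 and 3, against 0.12 and 0.02 on the control saline arrays. In mutants it was 0.32 and 0.23 after kainate, against 0.01 and 0.06 after saline. On replicate 1 it was -0.09 against -0.15 in controls and -0.08 against -0.08 in mutants. The part of either measure in the lower Kctd4 values was not tested.

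**Figure D4:**
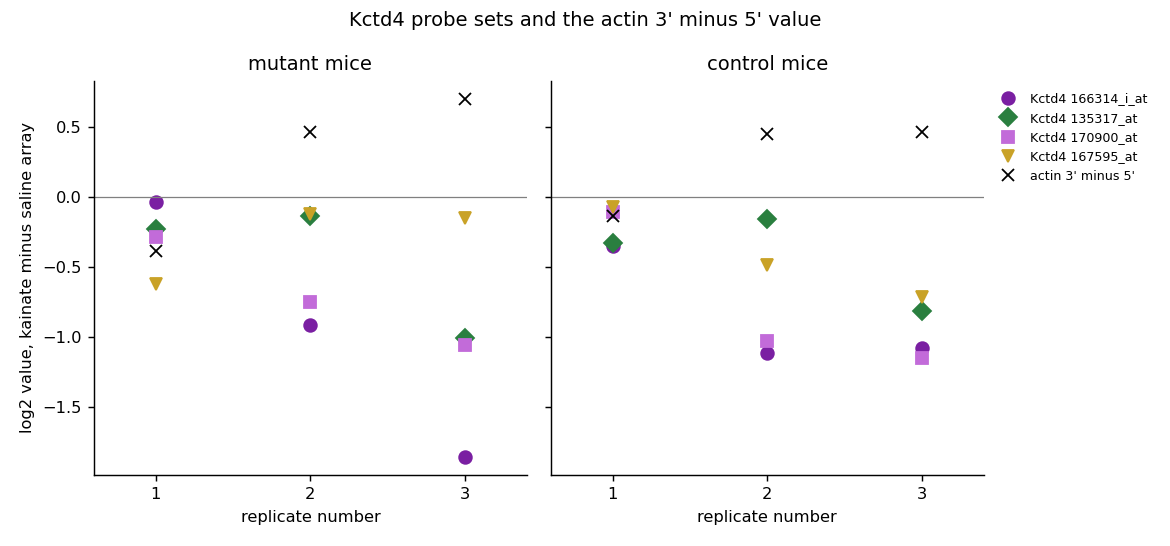
Log2 value of the kainate array minus that of the saline array with the same replicate number, for 4 Kctd4 probe sets and for the actin 3′ minus 5′ value, in mutant mice (left) and control mice (right). In replicates 2 and 3 probe sets 166314_i_at and 170900_at lie between -0.75 and -1.86 while the actin value lies between 0.45 and 0.70, and in replicate 1 the same probe sets lie between -0.04 and -0.35.

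The choice of genes that are lower in mutant saline arrays by itself makes their values correlate over the 12 arrays, so Pearson's r is given as a description only, over arrays that share genotype and batch. It was 0.85 between Fbll1 and Gm2115, 0.92 between Gm2115 and Slc25a16 and 0.78 between Fbll1 and Slc25a16. After centring on each replicate number these were 0.88, 0.96 and 0.95. Kctd4 135317_at correlated with Gm2115 at 0.88, with Slc25a16 at 0.80 and with Fbll1 at 0.60, and with Fbll1 at 0.94 without the 2 doubted arrays. The other Kctd4 probe sets correlated with these 3 genes at 0.06 to 0.52 in the values as deposited and at 0.22 to 0.82 after centring. After centring 167595_at correlated with Fbll1, Gm2115 and Slc25a16 at 0.74, 0.76 and 0.82, against 0.52, 0.31 and 0.06 before it. Among the Kctd4 probe sets 166314_i_at and 170900_at correlated at 0.93, and each correlated with 135317_at less closely, at 0.67 and 0.56.

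The probe sets of other genes most like Gm2115 over the 12 arrays, by r among 2712 candidates, belonged to Anks1b (0.98), to the somatostatin receptor gene Sstr4 (0.98) and to Mogs (0.96), which encodes a glucosidase of the endoplasmic reticulum. These stayed at 0.97 or above in the values centred on the replicate number. For Fbll1 the nearest were Zfp612 (0.90), Anks1b (0.89) and Gm2115 (0.85). For Slc25a16 they were Rprml (0.96), Anks1b (0.93) and Gm2115 (0.92). For the brightest Kctd4 probe set, 166314_i_at, they were Marchf10 (0.96), Ppp4r3b (0.96) and 1700012P22Rik (0.95), and none of the other 3 genes was among them.

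The gene families of Fbll1, Slc25a16 and Kctd4 were read by few probe sets. With the genes of the CREB family and of coenzyme A synthesis, 14 genes of these lists were measured. By limma 0 of the 14 passed for mutant against control after kainate and 1 had an unadjusted p under 0.05. For mutant against control after saline 0 of 14 passed and 2 had an unadjusted p under 0.05, against 0.00% and 12.1% of all probe sets. For kainate against saline 0 of 14 passed in either genotype, with 2 in mutants and 1 in controls at an unadjusted p under 0.05. Of all probe sets 0.0282% passed higher and 0.00% lower in each genotype, and 8.47% in mutants and 4.46% in controls had such an unadjusted p. Of 38 genes of ribosomal RNA modification and small nucleolar ribonucleoproteins 3 were measured, with a median difference of -0.15 after kainate and 0.08 after saline, mutant minus control. After kainate these were Rrn3, a factor of RNA polymerase I (1.00 ± 0.49), Pih1d1, an assembly factor (-0.55 ± 0.29), and nucleolin, Ncl (-0.15 ± 0.15). With both doubted arrays left out and batch as a block they were smaller, at 0.27 ± 0.16, -0.16 ± 0.09 and -0.02 ± 0.15 in the same order.

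Of 57 symbols listed for other mitochondrial carriers and their relatives 5 were measured, with a median of 0.08 after kainate and 0.10 after saline. Those with the largest differences after kainate were Slc25a29 (0.92 ± 0.66), Slc25a53 (-0.56 ± 0.49), the aspartate and glutamate carrier Slc25a12 (-0.49 ± 0.27) and Ucp1 (0.09 ± 0.07). When both doubted arrays were left out and batch was a block Slc25a29 was at 0.06 ± 0.29, Slc25a12 at -0.20 ± 0.19 and Ucp1 at 0.03 ± 0.09, and Slc25a53 turned its sign to 0.22 ± 0.22. After saline, where Slc25a16 was at -0.90, the same genes gave 0.16, -0.22, -0.17 and 0.18. Of 12 genes of coenzyme A synthesis and pantothenate metabolism 1 was measured, Vnn1, near the dim level (4.02 in mutants and 3.93 in controls after kainate). Of 27 KCTD genes and partners 1 was measured, Kctd7, at 3.71 in mutants and 4.56 in controls after kainate (-0.85 ± 0.32), with an adjusted p of 0.55 by limma and values around the dim level, and -0.48 ± 0.30 in the fit that omits both doubted arrays and takes batch as a block. Of 11 genes that encode CREB family members or their co-activators 4 were measured, with a median of 0.08 after kainate and 0.18 after saline. The co-activator genes Crtc1 and Crtc3 gave 0.24 ± 0.22 and -0.17 ± 0.15 after kainate, and 0.01 ± 0.16 and 0.04 ± 0.12 in the fit that leaves out both doubted arrays and has batch as a block.

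Of 29 measured marker genes 0 passed by limma in any comparison. For mutant against control 1 after kainate and 2 after saline had an unadjusted p under 0.05, against 4.72% and 12.1% of all probe sets. For kainate against saline 3 in mutants and 3 in controls had such a p, against 8.47% and 4.46%. The levels of some lists are given because their ranges differed between the genotypes where the 4 genes were lower. In whole-tissue RNA fewer cells of a type and less RNA per cell cannot be told apart. Summed linear signals of 4 of the 11 marker lists did not overlap between the genotypes after saline. The sum of the CA1 list was lower in mutants, and those of the CA3, astrocyte and microglial lists were higher. Of all single probe sets tested, 5.11% had no overlap in the lower direction after saline. The share in the higher direction and the share for list sums were not computed, so these 4 lists are given as a description. The CA1 list was read by 1 of 10 genes, Lefty1, whose linear signal was 97.7 to 155 in mutants and 274 to 392 in controls after saline, and 49.7 to 93.2 in mutants and 89.5 to 294 in controls after kainate. The kainate ranges without both doubted arrays were 79.9 to 93.2 in mutants and 217 to 294 in controls. Its log2 difference was -1.35 ± 0.42 after saline (limma, adjusted p = 0.385) and -1.32 ± 0.42 after kainate (limma, adjusted p = 0.55).

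Astrocyte markers, 5 of 18 measured, summed to 4970 to 8300 in mutants and 1910 to 3180 in controls after saline, and to 3210 to 8570 in mutants and 3000 to 8220 in controls after kainate. Leaving out both doubted arrays, the kainate sums did not overlap, at 7310 to 8570 in mutants and 3000 to 3220 in controls. Gfap carried the saline difference of this list (log2 difference 1.41 ± 0.49, limma, adjusted p = 0.385), and the other 4 genes lay between -0.09 and 0.03. After kainate Gfap gave 0.47 ± 0.49 with all arrays and 1.41 ± 0.26 without the 2 and with the batch block (limma, adjusted p = 0.186). Microglial markers, 3 of 16 measured, summed to 1110 to 1340 in mutants and 753 to 867 in controls after saline, and to 549 to 1510 in mutants and 906 to 1620 in controls after kainate. With both arrays left out the kainate sums were 1220 to 1510 in mutants and 906 to 983 in controls. Their saline differences were 0.67 ± 0.40 for Laptm5, 0.28 ± 0.52 for Cx3cr1 and 0.14 ± 0.10 for P2ry12. After kainate Laptm5 gave -0.18 ± 0.40 with all arrays and 0.61 ± 0.16 without the 2 and with the batch block (limma, adjusted p = 0.381). The CA3 list was read by 1 of 9 genes, Cpne4, at 22.9 to 25.8 in mutants and 19.9 to 22.3 in controls after saline, and 22.1 to 23.8 in mutants and 20.5 to 22.7 in controls after kainate. Its log2 means after saline were near the dim level, at 4.57 in mutants and 4.41 in controls (log2 difference 0.17 ± 0.07, limma, adjusted p = 0.415). After kainate its log2 difference was 0.05 ± 0.07. On the array but below the dim filter were Gpr161 of the CA1 list, St18 of the CA3 list, Gjb6, S100b, Sox9 and Acsbg1 of the astrocyte list and C1qc of the microglial list. The sums of the neuron, dentate granule cell, interneuron, neighbouring region, oligodendrocyte, vessel and choroid plexus lists overlapped between the genotypes after saline. Of the neighbouring region list 5 of 16 genes were measured. After saline Penk gave -0.62 ± 0.31 and Slc17a6 -0.49 ± 0.27, while Tshz2 gave -0.21, Rgs9 0.03 and Rorb 0.14. The part of cell composition in the lower values of Fbll1, Gm2115, Slc25a16 and Kctd4 was not tested.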

How the data were processed

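Each of 12 Affymetrix arrays (C array of the murine U74 set) holds 1 pool of hippocampal RNA. The authors deposited log2 values computed with GCRMA in R 2.4.1, per the submitters' processing notes, which give no GCRMA version. They were used as deposited. Gene symbols came from the platform annotation. Of 11934 probe sets 66 control probe sets were left out, and 3541 with log2 of at least 4 on at least 3 arrays were tested.

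A limma model (R 4.3.3, limma 3.58.1, lmFit, contrasts.fit and eBayes) gave each of the 4 groups a mean over all 12 arrays, with 8 residual degrees of freedom. P-values were adjusted (Benjamini-Hochberg) within each comparison over all 3541, with a threshold of 0.05. Errors on differences are standard errors of this fit, ratios are powers of 2 of the log2 difference, and exact permutation tests over 3 arrays against 3 were two-sided. The steps were tested on simulated data. Arrays are pools of animals that the labels call biological replicates, so p-values measure the spread between pools, and 3 arrays per group limit the precision.

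The genes and the lists were chosen with earlier results of these data known. Named were all probe sets of the 4 genes, and up to 4 measured members per family list by difference after kainate. Also named were markers of lists that moved and of the neighbouring region list, and the 3 probe sets most like each gene by r. Same-numbered arrays deviated together from their group means for genotype after kainate (r = 0.578, 0.333 and 0.19), genotype after saline (0.855, 0.47 and 0.482) and kainate in controls (0.627, 0.383 and 0.458), but not throughout for kainate in mutants (0.479, 0.0448 and -0.0779). Alternatives were 9 settings, among them the replicate number as a block, and leaving out each of the 12 arrays. The difference of kainate effects and the marker sums without the doubted arrays were added after the values were seen.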

Additional observations from a re-analysis of the deposited data

How the results depend on the processing

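For mutant against control after kainate, the count of 0 probe sets past the threshold became 4 when both doubted arrays were left out and batch was a block, and 0 to 15 when 1 array was left out, the 15 coming without mutant kainate replicate 1. The count for mutant against control after saline was 0, and 1 and 6 without the doubted arrays, without and with the batch block, and 0 to 0 when 1 array was left out. For kainate against saline in mutants it was 1, and 0 with no filter, 4 after quantile normalization again, 0 with only the arrays compared, 2 with the replicate block and 2 with the batch block, 3 and 5 without the doubted arrays, and 0 to 67 with 1 array left out. The 67 came without mutant kainate replicate 1, 3 without mutant kainate replicate 3, and 0 without control saline replicate 3 or any 1 of the control kainate or mutant saline arrays or mutant kainate replicate 2. For kainate against saline in controls it was 1, and 3 with the filter at log2 5, 2 after quantile normalization, 6 with only the arrays compared, 3 with the replicate block, 2 with the batch block, 5 and 7 without the doubted arrays, and 1 to 4 with 1 array left out. That count was 3 without control kainate replicate 3, 4 without mutant kainate replicate 1 and 3 without mutant kainate replicate 3. The causes were not tested.

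For the 7 measured probe sets after kainate, 142 of the values under the alternatives kept their direction and stayed short of the threshold, and the replicate block changed no call (Gm2115 -1.04 ± 0.34, adjusted p = 0.542 by limma). Calls were gained by Fbll1, Gm2115 and Slc25a16 once both doubted arrays were left out and batch was a block, and 2 values turned their sign, Kctd4 170900_at to 0.12 after quantile normalization again and Kctd4 167595_at to 0.06 without mutant kainate replicate 1 (it ran from -0.38 to 0.06 when 1 array was left out). After quantile normalization Fbll1 was at -0.18, Gm2115 at -0.68, Slc25a16 at -0.09 and Kctd4 135317_at at -0.30. Over all 21 alternatives the adjusted p from limma ran from 0.0249 to 0.998 for Fbll1, 0.013 to 0.998 for Gm2115, 0.013 to 1 for Slc25a16 and 0.129 to 0.998 for Kctd4 135317_at. A fit that leaves out 1 kainate array sets 2 kainate arrays against 3, and one without both doubted arrays sets 2 against 2.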
